A study of Mus musculus with 20 samples.

Results

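The H3K4me3 peaks of 5 kb or more that were called in Comma-Dβ, a line of mouse mammary epithelium, are described here by their genes and by the other chromatin marks over them. They were chosen by width alone, as peaks on the 19 autosomes whose end minus start was 5000 bp or more, and 428 of 16562 autosomal H3K4me3 peaks met the rule (2.58%). Chromatin immunoprecipitation with sequencing (ChIP-seq) had been done on 4 replicates each with antibodies to H3K4me3, H3K27ac, H3K27me3 and HEB, and on 4 replicates of input chromatin. All 20 samples came from the same line at passage 28, grown with low serum, insulin and epidermal growth factor. HEB is the E protein transcription factor encoded by Tcf12. The data used were 4 peak lists in mm10 coordinates, 1 for each antibody. No list has a column per replicate, so no spread between replicates could be computed, the read depth behind a peak is unknown, and every interval below is a 95% interval that covers counting error only. As a single cell line, the cells stand for cultured mammary epithelium and not for the lineages of a gland.

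H3K4me3 is placed by SET1 and MLL methyltransferase complexes around transcription starts, mostly in CpG-rich DNA, where proteins with CXXC domains bind unmethylated CpG. At most active genes the mark covers a short stretch on both sides of the start, and at some genes it runs far into the gene body. Such broad domains have been described in many cell types at genes that set cell identity and at tumor suppressors. H3K27ac marks active promoters and enhancers, H3K27me3 is laid down by Polycomb repressive complex 2, and promoters that carry H3K4me3 together with H3K27me3 are called bivalent.

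The sequences at gene starts inside broad peaks ranged from CpG-dense to CpG-poor, and 5 promoters are shown to make that range visible. Each is the stretch of 250 bases before the gene start, from the RefSeq promoter table of GRCm38.p6, printed along the gene's own strand with every CG in capitals. Gata3, whose product is the GATA factor of the luminal mammary lineage, has 19 CG in chr2:9878601-9878850 on the minus strand. Tfap2b, an AP-2 factor, has 5 CG in chr1:19211804-19212053 on the plus strand. Cdkn1b, the cyclin-dependent kinase inhibitor p27, has 28 CG in chr6:134920151-134920400 on the plus strand. Tpm1, an actin-binding tropomyosin, has 19 CG in chr9:67049214-67049463 on the minus strand, and the ribosomal protein gene Rpl13a has 24 CG in chr7:45128746-45128995 on the minus strand.
Gata3: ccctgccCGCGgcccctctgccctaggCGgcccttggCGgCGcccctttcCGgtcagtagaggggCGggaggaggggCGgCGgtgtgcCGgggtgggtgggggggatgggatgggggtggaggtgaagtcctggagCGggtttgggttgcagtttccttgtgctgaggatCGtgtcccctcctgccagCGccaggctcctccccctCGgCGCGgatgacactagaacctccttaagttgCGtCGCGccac
Tfap2b: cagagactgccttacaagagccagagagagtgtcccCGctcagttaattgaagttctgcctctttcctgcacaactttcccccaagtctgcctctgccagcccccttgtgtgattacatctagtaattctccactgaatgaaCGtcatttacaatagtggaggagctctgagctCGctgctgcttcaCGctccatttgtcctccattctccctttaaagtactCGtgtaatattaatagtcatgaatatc
Cdkn1b: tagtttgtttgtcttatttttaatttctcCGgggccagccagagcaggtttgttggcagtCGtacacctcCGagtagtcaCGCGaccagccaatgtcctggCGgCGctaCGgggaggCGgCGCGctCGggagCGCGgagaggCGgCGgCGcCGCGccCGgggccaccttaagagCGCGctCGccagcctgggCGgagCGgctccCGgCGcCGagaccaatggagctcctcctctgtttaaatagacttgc
Tpm1: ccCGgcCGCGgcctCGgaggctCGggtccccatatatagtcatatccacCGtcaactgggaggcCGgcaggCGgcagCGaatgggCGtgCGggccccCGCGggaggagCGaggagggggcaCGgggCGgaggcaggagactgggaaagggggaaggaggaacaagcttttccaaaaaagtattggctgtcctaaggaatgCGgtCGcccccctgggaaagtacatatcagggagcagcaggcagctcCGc
Rpl13a: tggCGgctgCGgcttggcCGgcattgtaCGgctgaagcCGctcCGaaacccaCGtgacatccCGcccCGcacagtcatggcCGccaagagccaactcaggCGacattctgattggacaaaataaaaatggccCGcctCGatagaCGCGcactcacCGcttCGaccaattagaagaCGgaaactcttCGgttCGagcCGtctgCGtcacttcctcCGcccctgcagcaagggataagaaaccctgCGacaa

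The CpG ratio of promoters in broad peaks lay close to that in peaks of 2 to 5 kb and above that in narrower peaks. Of 477 genes with an end at a broad peak, 377 had an entry in the promoter table. A listed start inside a broad peak was found for 375 genes, of which 345 are among the 477 and 30 have their ends elsewhere. Over the 300 bases of these 375 entries, the median ratio of observed to expected CpG was 0.822 (quartiles 0.658 and 0.975), against 0.843 (0.704 and 0.964) in 5497 promoters whose widest H3K4me3 peak was 2 to 5 kb. The ratio was 0.718 where the widest peak was under 2 kb and 0.210 in 7170 promoters with no H3K4me3. A ratio of 0.6 or more was found in 82.1% of broad-peak promoters, against 86.4% at 2 to 5 kb and 12.3% with no H3K4me3. Of the printed promoters, Tfap2b had an upstream ratio of 0.391 and Gata3 0.633, while Cdkn1b had 1.08 and Rpl13a 1.13.

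**Figure D1:**
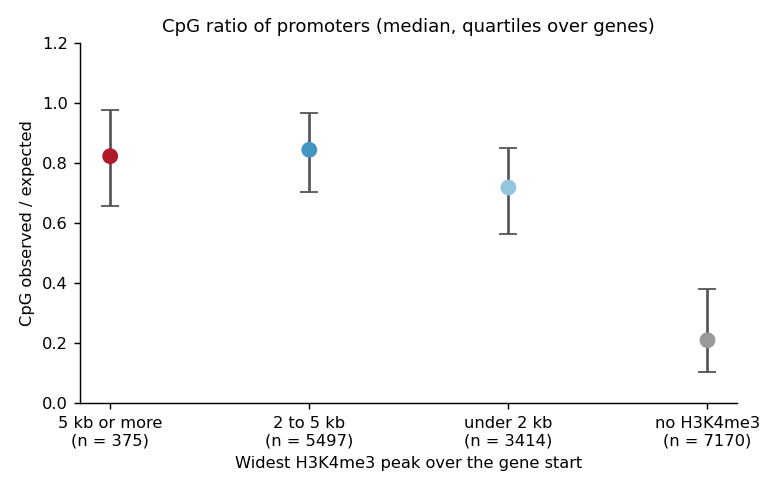
The vertical axis is the CpG observed over expected ratio of 300-base promoters, and the horizontal axis groups genes by the widest H3K4me3 peak over their listed start; points are medians and bars run from the lower to the upper quartile over genes. The 375 promoters in broad peaks (median 0.822) lie level with the 5497 in peaks of 2 to 5 kb (0.843), and the 7170 with no H3K4me3 lie lowest (0.210).

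Because broad peaks also covered microRNA genes, the mature sequences of the best-known ones are shown, from the RefSeq miRNA table of GRCm38.p6, with the seed (bases 2 to 8) in capitals. Let-7i-5p and let-7e-5p share the seed GAGGUAG, the seed of the let-7 family that restrains growth and progenitor genes, and miR-99b-5p carries ACCCGUA. MiR-125b-5p and miR-21a-5p, a miRNA abundant in many epithelial tumors, have seeds of their own. In GRCm38.p6 let-7i-5p lies at chr10:122985698-122985719 and miR-21a-5p at chr11:86584120-86584141, both on the minus strand. On the plus strand lie let-7e-5p at chr17:17830366-17830387, miR-99b-5p at chr17:17830194-17830215 and miR-125b-5p at chr9:41581940-41581961.
let-7i-5p: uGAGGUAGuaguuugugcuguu
let-7e-5p: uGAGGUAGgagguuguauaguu
miR-99b-5p: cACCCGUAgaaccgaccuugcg
miR-125b-5p: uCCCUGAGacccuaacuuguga
miR-21a-5p: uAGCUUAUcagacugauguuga
Other genes with 2 of these seeds lay outside but near broad peaks, and 3 of their products are shown for the comparison of seeds. Let-7c-5p and let-7b-5p lie beside the widest peak and miR-100-5p beside the peak that holds Mir125b-1. All 3 are on the plus strand, at chr15:85706616-85706637, chr15:85707325-85707346 and chr9:41531437-41531458 in that order.
let-7c-5p: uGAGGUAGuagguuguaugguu
let-7b-5p: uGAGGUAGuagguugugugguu
miR-100-5p: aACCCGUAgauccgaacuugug

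The broad peaks had a median width of 5884 bp, with quartiles of 5323 and 6908 bp, and reached 24358 bp. Width chose them, so width and the H3K4me3 enrichment of the same list are given as description only. Their fold enrichment of ChIP over control, the authors' own value, had a median of 20.04 (quartiles 15.2 and 27.02), against 22.1 in the 6423 peaks of 2 to 5 kb and 12.9 in all 16134 peaks under 5 kb. The fold was thus not at its highest in the widest peaks: its median was 21.2 at 5 to 6 kb, 19.97 at 6 to 8 kb and 18.2 in the 58 peaks of 8 kb or more. Among members it ran between 2.92 at Zfp532 and 47.0 at Myc, the growth-control transcription factor. Just inside the threshold lay peaks of 5000 bp inside Hivep2, 5003 bp at the histone genes H4c9, H2ac11 and H2bc11, 5006 bp at Cdk13 and 5007 bp each at Lsm8 and at Pusl1 and Acap3. Just outside it lay 4998 bp at Lratd2, 4997 bp at Ahnak and 4996 bp at Slc3a2.

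**Figure D2:**
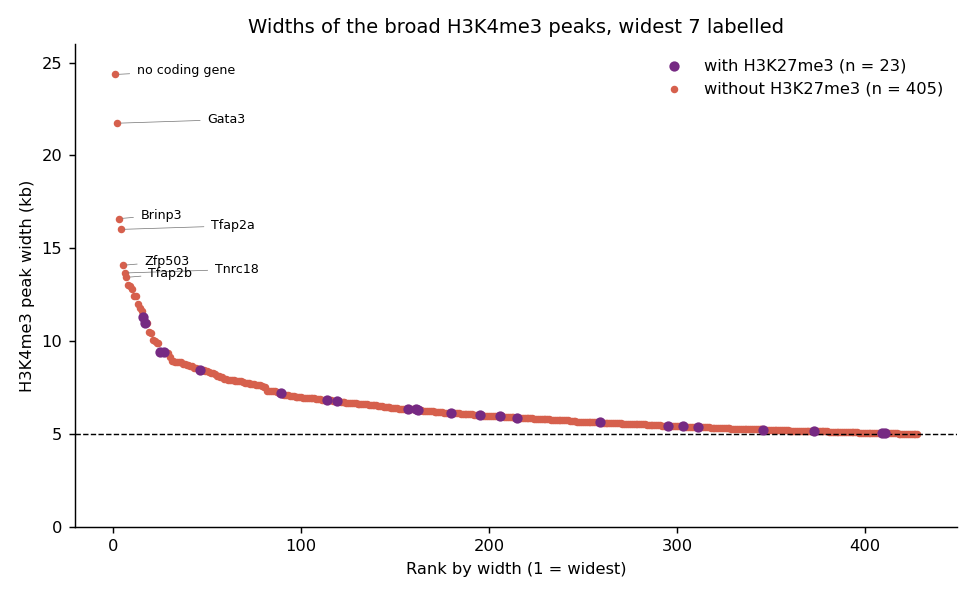
The vertical axis is the width of each broad H3K4me3 peak in kb and the horizontal axis its rank from the widest, with 1 point per peak; the dashed line is the rule of 5 kb. A few peaks stand far above the rest, led by a 24.4 kb peak at no coding gene end and by Gata3 at 21.7 kb, and the 23 peaks that overlap H3K27me3 are spread along the ranks.

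The 20 widest peaks held both transcription factor genes and other genes. Gata3 lay under 21.7 kb of H3K4me3 (chr2:9868473-9890205) and Tfap2a under 16.0 kb (chr13:40722684-40738698). Tfap2b had 13.4 kb (chr1:19205563-19218995). These 3 genes encode factors known from luminal and ectodermal development, and each peak was covered by H3K27ac over 98.8 to 99.3% of its bases with no H3K27me3. The Iroquois homeobox genes Irx2 and Irx5 had 13.0 and 11.98 kb, and Zfp503, a zinc finger repressor, 14.1 kb. Nfib, a nuclear factor I gene, had 11.8 kb and Trps1, an atypical GATA repressor that is high in breast epithelium, 11.0 kb. Genes that are not transcription factors were also among the 20 widest, with 16.6 kb at Brinp3, 13.0 kb at Tsc22d2, 11.6 kb at Cdkn1b, 11.0 kb at Pcdh7, a protocadherin, and 10.5 kb at Brd2, the BET bromodomain gene, and H2-DMa. Tnrc18 had 13.7 kb, and Nr2f1, an orphan nuclear receptor, 11.3 kb.

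Broad peaks mostly reached a protein-coding gene, as other well-marked peaks did. A gene end, start or finish, within 1 kb was found for 365 of 428 (85.3%, interval 81.6 to 88.3), against 86.2% of peaks of 2 to 5 kb and 62.8% of all peaks under 5 kb. Of the 365, 267 reached 1 gene, 86 reached 2, 11 reached 3 and 1 reached 5, the histone genes H2ac8, H2bc8, H2bc7, H2ac7 and H3c4. Starts of more than 1 listed gene lay inside 58 broad peaks (13.6%), against 10.9% of peaks of 2 to 5 kb. Among 255 broad peaks with the start of a single listed gene, the mark ran a median of 4511 bp into the gene and 1384 bp upstream of it, and it was longer on the gene side in 216 (84.7%). In 4158 such peaks of 2 to 5 kb the medians were 1849.5 bp and 823 bp, with the gene side longer in 92.2%. In all, 477 of 20661 autosomal protein-coding genes had a broad peak (2.31%), or 4.03% of the 11836 genes with any H3K4me3 peak.

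Genes on the basal and on the luminal regulator list had broad peaks, with no firm order between the 2 lists. The gene lists used here hold 660 distinct genes, of which 85 had a broad peak and 493 any H3K4me3 peak. They were drawn up with earlier results of these data known, so their counts describe the lists and are read beside the 2.31% and 4.03% above. A list name is only a label, and genes on the basal list may also act in luminal cells. Of 17 genes on the basal list, 5 had a broad peak (29.4%, interval 13.3 to 53.1). Nfib had 11.8 kb, the LIM protein gene Lmo4 8.43 kb and the stem cell factor Sox9 8.27 kb. Tbx3, which is needed for mammary gland formation, had 6.93 kb and the E protein antagonist Id4 5.09 kb. All 5 were covered by H3K27ac over 100% of their bases and none overlapped H3K27me3. Of 25 luminal regulators, 4 had one (16.0%, interval 6.40 to 34.7), namely Gata3, Tfap2a, Tfap2b and Bcl11a. Bcl11a stood apart from the other luminal genes: its 6.31 kb peak had a fold of 8.02, was covered by H3K27me3 over 100% of its bases and by H3K27ac over 14.1%. The order of the lists depends on how genes are placed: with listed gene starts only, 2 basal and 5 luminal regulators had a broad peak, and at 8 kb or more 3 of each did. Sox9, Tbx3 and Nfib were not placed by listed starts. The median of the widest H3K4me3 peak over marked genes was 4.49 kb for the basal list and 3.52 kb for the luminal list, against 2.27 kb for all genes. An H3K4me3 peak of any width at a gene end was found for 12 of 17 basal and 18 of 25 luminal regulators. Those without one included Trp63, Egr2, Mef2c, Myocd and Srf of the basal list and Foxa1 and Elf5 of the luminal list. Peaks further inside a gene are not counted here, so a gene without a peak at its ends may still carry H3K4me3. Runx1 of the luminal list, for example, has a broad peak of 8.75 kb inside the gene. The counts therefore do not place the line on the basal or the luminal side.

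The structural genes of these lineages gave counts too small to set apart from the all-gene shares. Of 15 basal keratin and adhesion genes only Itga3, an integrin subunit that pairs with beta 1, had a broad peak, at 7.33 kb (6.67%, interval 1.19 to 29.8). None of 18 luminal keratin and milk genes did (interval up to 17.6%). H3K4me3 of any width at a gene end was found for 13 of the basal and 12 of the luminal structural genes. It was found for all 15 EMT and mesenchymal genes and for 57.3% of all genes, so these counts do not test the epithelial label. In 73 distinct marker genes of neurons, muscle, fat, stroma, endothelium and immune cells, 26 had some H3K4me3 and 0 had a broad peak at a gene end. The shares were 2.31% over all genes and 4.03% over marked genes, so 0 among so few does not set these markers apart.

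Other transcription factor families held few to several broad members each. Sox genes had 4 of 18 (Sox2, Sox4, Sox9 and Sox11), T-box genes 3 of 14 (Tbx3, Tbx18 and Tbx20) and forkhead genes 5 of 31 (among them Foxc1, Foxf1, Foxo3 and Foxp1). A list that joins the Irx, Pbx/Meis, Tgif, Eya and sine oculis genes had 6 of 27. Among them were Irx1 at 7.87 kb, Meis1 at 7.79 kb and Tgif1 at 9.34 kb beside Irx2 and Irx5. AP-1 genes had 3 of 12: Jun at 6.06 kb, Junb at 6.56 kb and Fosl2 at 8.93 kb, each with H3K27ac over 100% of the peak. Hox genes had 4 of 39, all in the Hoxb cluster, where Hoxb2 and Hoxb3 share a peak and Hoxb7 and Hoxb8 share another. The homeobox list of Dlx, Msx, Pitx, Lhx and Nkx genes had 0 of 35, with 19 carrying some H3K4me3, and Pax genes had 0 of 9. AP-2 and grainyhead genes had 2 of 8 (Tfap2a and Tfap2b), Gata genes 1 of 5 (Gata3) and nuclear factor I genes 1 of 4 (Nfib). Kruppel-like genes had 2 of 13 (Klf3 and Klf6), the Runx, Ets and Tead list 2 of 24 (Tead4 and its cofactor gene Vgll3), nuclear receptors 2 of 23 (Nr2f1 and Nr4a3) and chromatin regulators 3 of 31 (Setd1b, Arid1b and Kdm6b). Counts at gene ends leave out broad peaks further inside a gene. With any overlap of the gene body, nuclear receptors had 5, the Runx, Ets and Tead list 4, nuclear factor I genes 2 and the Dlx to Nkx list 1. The peaks inside these genes measured 8.75 kb in Runx1, 6.95 kb in Runx2, 8.73 kb in the glucocorticoid receptor gene Nr3c1, 8.56 kb in Nr2f2, 5.135 kb in the retinoic acid receptor gene Rara and 5.15 kb in Pitx1.

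E proteins are the family of HEB, and 3 of the 7 E protein and Id genes had a broad peak. Id2 had 8.79 kb and Id4 5.09 kb, both genes of dominant-negative partners that lack a DNA-binding region. The E protein gene Tcf4 had 5.40 kb at a gene end and another broad peak of 6.85 kb further inside the gene, with H3K27ac over 100% of it. Tcf12 itself was not a member: its widest H3K4me3 peak was 3229 bp (chr9:72109439-72112667), with a fold of 22.4 and H3K27ac over 59.4% of it.

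Signalling, cytoskeletal and growth lists had shares above the all-gene share, as housekeeping genes did, but the counts of the Notch, Wnt and matrix lists were small. In the Notch list 2 of 24 were broad, the target gene Hes1 at 7.97 kb and Lfng, a glycosyltransferase that modifies Notch receptors, at 5.45 kb. The interval of the Notch share was 2.32 to 25.8%, beside 2.31% of all genes and 4.03% of marked genes, and without chromosomes 5 and 15 the count was 1. For Wnt genes the interval was 3.35 to 24.9%, and for extracellular matrix genes 3.51 to 20.7%. Wnt genes had 3 of 31, with the noncanonical ligand Wnt5a at 9.39 kb and the receptor Fzd7 at 7.74 kb, and the TGF-beta and BMP list had 4 of 25, among them the inhibitor Smad7 at 7.98 kb. Actin and focal adhesion genes had 8 of 33 (24.2%), for example Tpm1 at 9.39 kb and the nonmuscle myosin gene Myh9 at 8.46 kb. Cell cycle genes also had 8 of 26 (30.8%): Cdkn1b, Ccnd1, Cdkn2c, Ccnd2, Myc, Cdkn2a, Cdk6 and Trp53. EMT genes had 3 of 15 (Vim, Tcf4 and Sox4) and extracellular matrix genes 4 of 45 (Thbs1, Ccn1, Col1a2 and Sparc). Housekeeping genes had 6 of 18 (33.3%, interval 16.3 to 56.3), including Rpl13a at 8.11 kb and Gapdh at 5.06 kb, and cytosolic ribosomal protein genes 5 of 37. Some of these peaks span more than 1 gene, as at Gapdh, which shares its peak with Iffo1 and Ncapd2. These counts at gene ends also leave out broad peaks further inside a gene. Among them were 7.08 kb in Rbpj of the Notch list, 5.01 kb each in Zeb2 of the EMT list and Col12a1 of the matrix list, and 5.06 kb in Cald1 of the actin list.

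**Figure D3:**
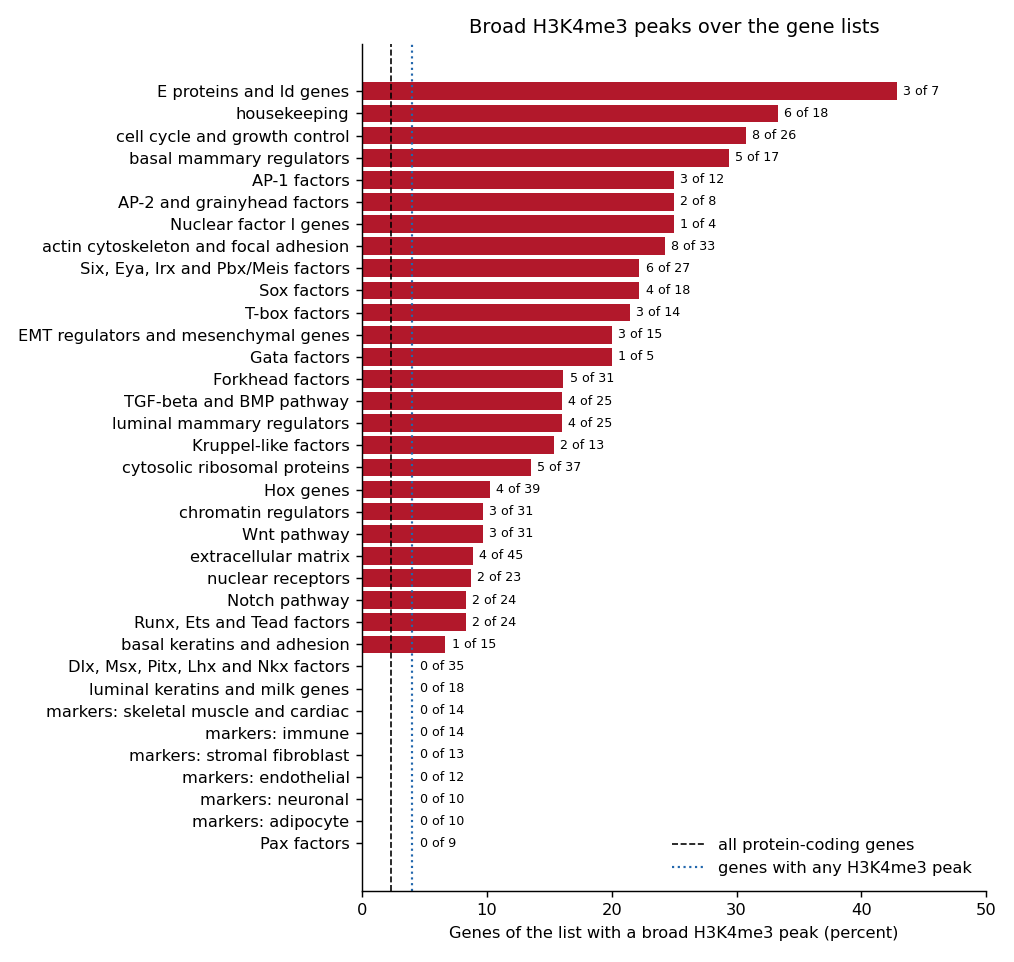
Bars give the percent of each list's genes that have a broad H3K4me3 peak at a gene end, with the counts beside them; the dashed line marks all protein-coding genes (2.31%) and the dotted line genes with any H3K4me3 peak (4.03%). Regulator lists of the mammary lineages lie right of both lines together with housekeeping and cell cycle genes. The 6 lists of other cell types are at 0, with intervals up to 21.5% or more that include both lines.

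Replication-dependent histone genes were another group with shared broad peaks. Of 64 such genes 59 had H3K4me3 and 13 lay at 4 broad peaks of 5.00 to 7.86 kb, so that neighbouring genes share 1 peak.

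Outside coding gene ends, 63 broad peaks remained: 19 at the end of a long noncoding RNA gene, 35 inside a coding gene and 9 at neither. The widest H3K4me3 peak of the autosomes was one of the 9, at 24.4 kb (chr15:85663310-85687667), with H3K27ac over 100% of its bases inside an H3K27ac peak of 58.3 kb. Mirlet7c-2 and Mirlet7b lay 18.9 and 19.7 kb from its edge. Neat1 and Malat1, neighbouring nuclear noncoding RNA genes, had 12.8 and 8.87 kb. Peaks inside genes included 12.4 and 9.34 kb in Aopep, 10.5 kb in the repressor gene Zbtb20, 10.0 kb in Foxp1 and 9.90 kb in Nfix, a nuclear factor I gene. A 12.4 kb peak at Gm49890 lay 19.6 kb from Mir31.

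MicroRNA genes lay near these peaks off coding gene ends more often than near narrower ones. Of the 63, 17 had a miRNA gene within 50 kb (27%, interval 17.6 to 39.0), against 14.3% (12.1 to 16.7) of 884 such peaks of 2 to 5 kb and 9.47% of 6008 under 5 kb. The differences were 12.7 points (Newcombe interval 3.01 to 24.97) and 17.5 points (8.08 to 29.6). This distance was chosen after the values were seen, and wider peaks take in more ground. Some of the 17 peaks also share miRNA genes, which the intervals do not take into account. A 5.84 kb peak shares Mirlet7c-2 and Mirlet7b with the widest peak, and the peaks of 12.4 and 9.34 kb in Aopep share Mir23b and its neighbours. Inside broad peaks themselves lay 15 of 1136 autosomal miRNA genes (1.32%), at 13 peaks, against 139 in any H3K4me3 peak. Mir125b-1 lay in an 8.66 kb peak (chr9:41579691-41588353), Mirlet7i in 5.77 kb, Mir21a in 6.56 kb at Vmp1, and Mir99b and Mirlet7e together in 5.15 kb at Spaca6. H3K27ac covered 100% of each of these 4 peaks. Mir100 lay 48.2 kb from the Mir125b-1 peak. Position says nothing of the miRNA level, which was not measured.

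All 428 broad peaks overlapped an H3K27ac peak by at least 1 bp (100%, Wilson interval 99.1 to 100), against 97.7% of peaks of 2 to 5 kb and 80.5% of all peaks under 5 kb; the share over all autosomal H3K4me3 peaks was 81.0%. The difference was 2.29 percentage points from peaks of 2 to 5 kb (Newcombe interval 1.34 to 2.68) and 19.5 points from all peaks under 5 kb (18.4 to 20.1). A wider peak has more room to overlap, so the covered bases were compared too. H3K27ac covered 90.2% of the bases of broad peaks, against 78.2% at 2 to 5 kb and 71.3% under 5 kb. It covered every base of 193 broad peaks (45.1%), against 21.5% and 26.9%, a difference of 23.6 points (18.8 to 28.4) from peaks of 2 to 5 kb and 18.2 points (13.5 to 22.9) from all under 5 kb.

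The acetylated stretches at broad peaks were long. The widest overlapping H3K27ac peak had a median of 7478 bp, against 2600 bp at H3K4me3 peaks of 2 to 5 kb, and its highest deposited fold had a median of 6.24, against 4.73. An H3K27ac peak of 10 kb or more lay over 143 broad peaks (33.4%), against 4.61% at 2 to 5 kb and 3.67% under 5 kb, and the differences were 28.8 points (24.5 to 33.4) and 29.7 points (25.4 to 34.3). The share was 10.2% at H3K4me3 widths of 4 to 5 kb, 20.3% at 5 to 6 kb, 37.7% at 6 to 8 kb and 75.9% at 8 kb or more. A wider peak has more room to meet a long H3K27ac peak. H3K27ac covered 95.7% of the bases at 8 kb or more, and an H3K27ac peak that covers a wide peak must itself be long. The rise and the differences above therefore follow in part from the width rule, and how far they go beyond it was not tested. The longest were 91.9 kb over 2 broad peaks in Nfix, 69.4 kb over Myh9, 61.8 kb over Neat1 and Malat1, and 58.3 kb over the peak near Mirlet7c-2 and 1 other broad peak. Over Gata3 the H3K27ac peak was 30.6 kb. Fully acetylated peaks with no H3K27me3 were led by the let-7 locus peak, Brinp3, Tnrc18 and Irx2.

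Acetylation was sparse at a few members. It covered 13.1% of a 7.11 kb peak at the noncoding gene Gm35090, 14.1% at Bcl11a, 16.4% at Igfbp5, an IGF-binding protein gene, 23.2% at the helicase gene Ddx24 and 29.2% at Zfp281. Of these, Bcl11a and Igfbp5 were covered by H3K27me3 throughout and the others overlapped none.

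**Figure D4:**
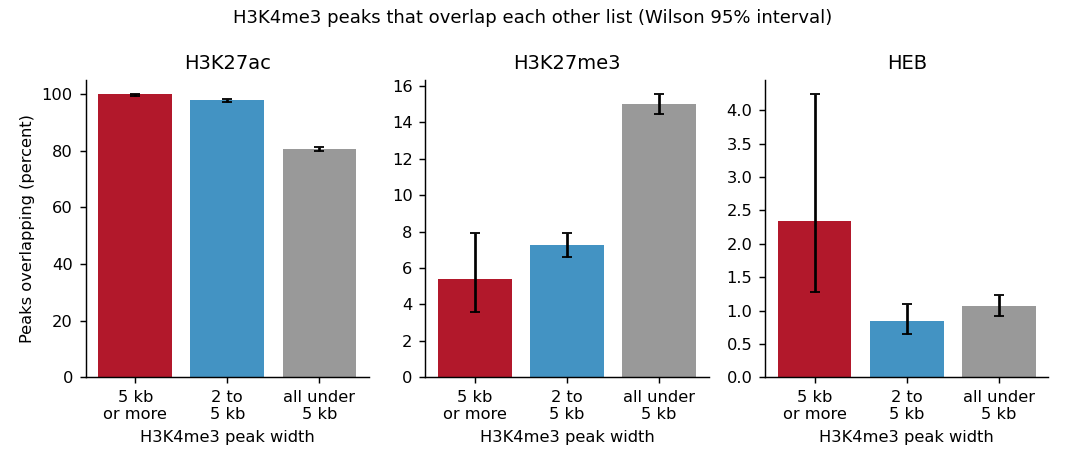
Bars give the percent of H3K4me3 peaks that overlap an H3K27ac peak, an H3K27me3 peak or a HEB site by at least 1 bp, for 428 peaks of 5 kb or more, 6423 peaks of 2 to 5 kb and all 16134 under 5 kb; error bars are Wilson 95% intervals and the 3 vertical axes differ. Broad peaks stand highest for H3K27ac (100%) and HEB (2.34%) and lowest for H3K27me3 (5.37%).

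H3K27me3 was met less often at broad peaks than at H3K4me3 peaks as a whole, of which 14.8% overlapped it. It overlapped 23 of 428 (5.37%, interval 3.61 to 7.93), against 7.24% of peaks of 2 to 5 kb and 15% of all peaks under 5 kb. The difference from all narrower peaks was -9.63 points (-11.5 to -7.01), while that from peaks of 2 to 5 kb was -1.87 points with an interval that includes 0 (-3.75 to 0.766). Of the bases of broad peaks 3.30% were covered, against 4.22% and 7.93%. All 23 also overlapped H3K27ac, so 405 peaks had H3K27ac alone and 0 had H3K27me3 alone, against 10.4% with H3K27me3 alone under 5 kb.

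The 23 peaks with H3K27me3 lay at transcription factor genes such as Sp9, Tbx20, Tbx18, Foxf1 and Sox2 and at other genes such as Igfbp5, Ccnd2, Cdk6 and Cyp1b1. Their deposited H3K4me3 fold had a median of 11.1, against 20.8 in the other 405 members. H3K27me3 covered every base at 8 of them: Igfbp5, the zinc finger gene Sp9, Bahcc1, the T-box genes Tbx20 and Tbx18, Bcl11a, the forkhead gene Foxf1 and the Hoxb8 and Hoxb7 pair. At Tbx18 and Sp9 the same bases were nearly all acetylated, with both marks over 100% and 97.4% of the peak, whereas at Bcl11a and Igfbp5 both marks shared 14.1% and 16.4%. Partial cover was found at Ccnd2, a D-type cyclin gene, with 93.1%, Sox2, a pluripotency and neural factor gene, with 55.6%, Nr2f1 with 45.4%, Tshz2 with 42.3%, Cdk6 with 36.4% and Maf with 32.5%. At Wnt5a it was 20.8%, at Hmga2, a chromatin protein of fetal tissue, 20.1%, and at Nr4a3 6.93%, where no base carried both marks. Some of these H3K27me3 calls were weak. With H3K27me3 peaks at −log10 q of 5 or more, 16 of the 428 broad peaks (3.74%) overlapped one. The calls at Wnt5a (H3K27me3 fold 1.94), Hmga2 (1.90), Nr2f1 (2.07) and Tshz2 (2.05) fell below that level. Peaks from pooled cells cannot say whether both marks sat on the same allele or in different cells.

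**Figure D5:**
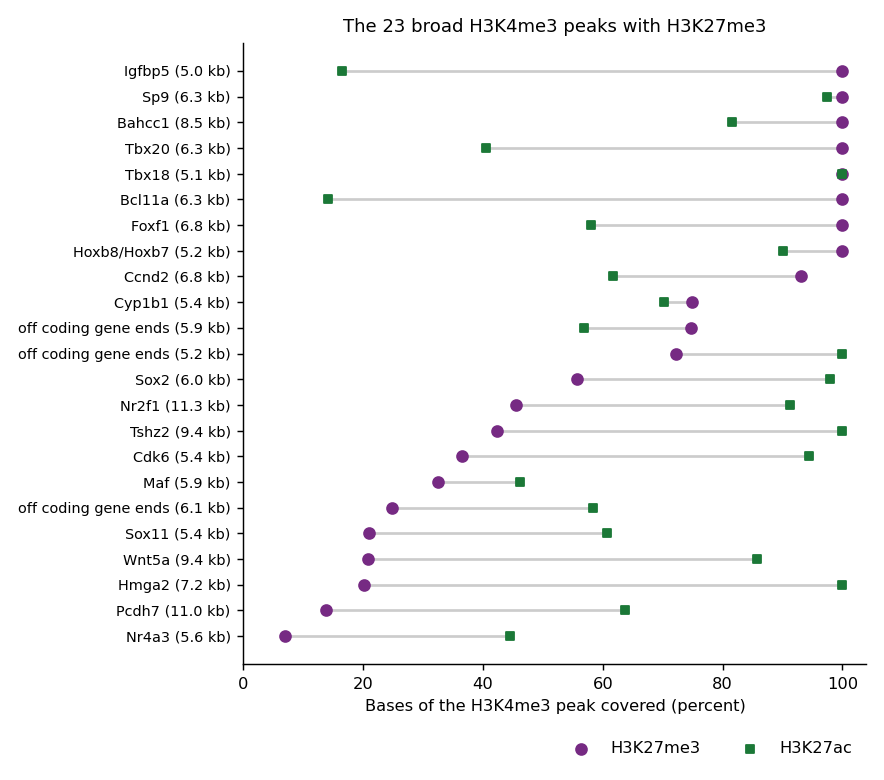
Each row is 1 of the 23 broad H3K4me3 peaks that overlap H3K27me3, named by its coding gene and width in kb; the horizontal axis is the percent of the peak's bases covered by H3K27me3 (circles) and by H3K27ac (squares). At 8 peaks from Igfbp5 to Hoxb8/Hoxb7 the H3K27me3 cover is 100%, and H3K27ac cover at the 23 peaks ranges between 14.1% and 100%.

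HEB sites lay in 10 of the 428 broad peaks (2.34%, interval 1.27 to 4.25), against 0.841% of peaks of 2 to 5 kb and 1.07% of all under 5 kb, with 1.10% over the whole list. The differences were 1.496 points (0.403 to 3.42) and 1.27 points (0.194 to 3.19). Per base the broad peaks were not ahead beyond counting error: they had 3.58 sites per Mb (exact Poisson interval 1.71 to 6.58), against 2.96 (2.23 to 3.85) at 2 to 5 kb and 6.03 (5.16 to 6.99) under 5 kb. In the central 500 bp of each peak, which gives every peak the same room, the share was 0.467% (2 peaks), against 0.762% under 5 kb, a difference of -0.295 points (-0.664 to 0.931). Chromosomes 5 and 15 held 5 of the 10 peaks, and without them the share was 1.30%, against 0.958%, with a difference of 0.341 points (-0.422 to 2.05).

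The 10 peaks with a HEB site lay at Tnrc18, at Tmem259 and Cnn2, at Prdx2 and Junb, at Micall2, at the histone genes H1f5 and H3c11, at Ajuba, Lfng, Ereg and Tuba1c, and at Pik3r2 and Mast3. Each held 1 site. Calponin Cnn2, the LIM protein Ajuba and tubulin Tuba1c act in the cytoskeleton or at junctions, and Ereg encodes the EGF receptor ligand epiregulin. The other genes are of several kinds, and whether any kind was more frequent here than at other broad peaks was not tested. None of the 10 peaks overlapped H3K27me3. At Ereg (chr5:91074342-91074787) and H1f5 (chr13:21780531-21781208) the site's midpoint was 0.161 and -0.119 kb from the middle of the peak along the genome, whereas at Tnrc18 it was 4.195 kb away. The sites at Junb and at Pik3r2 and Mast3 crossed the edge of the peak. None of the mammary regulators named above with a broad peak (Gata3, Tfap2a, Tfap2b, Bcl11a, Sox9, Tbx3, Id4, Nfib and Lmo4) had a HEB site inside it. HEB sites lay in only 2.34% of all broad peaks, so their absence from so few peaks does not set these regulators apart. Counting HEB sites anywhere in an H3K27ac peak that overlaps the broad peak gave 19 (4.44%), against 1.54% at 2 to 5 kb and 1.82% under 5 kb. The additions included peaks in Nfix and at Neat1, Malat1, Mcl1, Tns2, Chd3 and Lrp1, and the 2 in Nfix share 1 H3K27ac peak and its sites, as Neat1 and Malat1 do. H3K27ac peaks at broad peaks are longer and so have more room: per base they held 4.32 distinct sites per Mb (2.60 to 6.75), against 4.29 at 2 to 5 kb and 6.41 under 5 kb.

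The HEB site at H1f5, a linker histone gene, covered the whole stretch of 250 bases before its start (chr13:21780626-21780875, minus strand), so that stretch is shown as an example of promoter DNA under a HEB site. Capitals mark its only CANNTG, the E-box to which E protein dimers bind.
H1f5: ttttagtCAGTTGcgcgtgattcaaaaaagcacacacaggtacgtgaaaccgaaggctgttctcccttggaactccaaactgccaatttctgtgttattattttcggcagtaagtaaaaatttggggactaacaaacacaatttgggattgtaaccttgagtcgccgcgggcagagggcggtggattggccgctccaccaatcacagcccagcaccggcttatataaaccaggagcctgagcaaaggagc
The E-box CANNTG reads the same on both strands, and CAGCTG is one form of it. CANNTG occurred in the upstream 250 bases of 43.5% of the 375 broad-peak promoters (interval 38.5 to 48.5), against 50.4% at 2 to 5 kb and 62.2% of all 16456 promoters in the table. CAGCTG occurred in 8%, against 10.1% and 11.7%, and CAGGTG, searched on both strands, in 6.67%, against 12.6% and 17.0%. CpG-rich stretches differ from others in base composition, and its part in these shares was not tested.

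Broad peaks were spread over all 19 autosomes, with shares of H3K4me3 peaks between 1.48% on chromosome 14 and 4.22% on chromosome 13. Another broad peak lay within 50 kb of 43 of them (10.0%).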

How the data were processed

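ChIP-seq peak lists for H3K4me3, H3K27ac, H3K27me3 and HEB in Comma-Dβ cells were used as deposited. Coordinates are mm10, and SAMtools is named with no version, per the submitters' processing notes. The aligner, peak caller, control and pooling of replicates were not given in the sources used here. As its name says, the HEB list is a replicate consensus with a minimum overlap of 2. The deposited fold enrichment, a ratio of ChIP over control per peak, and the deposited −log10 q-value are the authors' own. Peak width depends on how a caller joins nearby signal, and those settings are not known here.

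Python 3.11.15 with numpy 2.4.6, pandas 2.3.3 and scipy 1.17.1 computed overlaps (1 bp or more), covered bases, Wilson and Newcombe intervals and exact Poisson intervals; these functions were checked on simulated intervals. No p-value was computed. Genes came from a RefSeq table of GRCm38.p6, the assembly of mm10. Because its strand was not given for every gene, a gene was counted at a peak when either end lay within 1 kb; promoters, available for 16456 of 20661 genes, served for starts, CpG and motifs. The members and gene lists were chosen with earlier results of these data known. Named genes were those at the 20 widest peaks, list genes with a broad peak, those with HEB sites, the 15 with the most H3K27me3 bases and the 15 most acetylated, those nearest the threshold, and Tcf12; genes outside these, the miRNA, histone gene, 10 kb H3K27ac and promoter comparisons, and the printed sequences were chosen after values were seen. Alternatives changed the overlap rule, the central window, the peak threshold, the width rule, joining, the window at genes and the chromosomes used. A few genes at these peaks are not reported here. The 4 input samples were not analysed here on their own.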

Additional observations from a re-analysis of the deposited data

Results flagged for a closer look

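Chromosome X was outside the comparisons above, and 8 of its 539 H3K4me3 peaks were 5 kb or more (1.48%, Wilson interval 0.754 to 2.90). They included peaks at Pcdh19 and Gm26851 with 10.1 kb, Flna, which encodes filamin A, with 7.24 kb, the noncoding RNA gene Xist with 6.40 kb, Efnb1 with 5.86 kb, Huwe1 with 5.47 kb and Bcorl1 with 5.45 kb, and 1 of 6.36 kb lay at no coding gene end. H3K27ac covered 0% of the Bcorl1 peak, whereas every autosomal broad peak overlapped H3K27ac. None of the 8 held a HEB site. The other 61 peaks off the autosomes included 0 of that width.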

How the results depend on the processing

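No paired analysis was possible because the lists carry no replicate columns, so leaving out a replicate could not be run either. Read depth is unknown.

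The share with H3K27ac was 95.1% when at least 50% of the peak had to be covered, 97.0% in the central 500 bp and 99.1% with H3K27ac peaks at −log10 q of 5 or more. The share with H3K27me3 was 3.04% under that cover rule and 8.62% at 8 kb or more, where its difference from narrower peaks was -6.15 points (interval -11.1 to 3.89); against peaks of 2 to 5 kb it was -1.87 points. The share with HEB was 0.467% in the central 500 bp, where the difference reversed to -0.295 points (interval -0.664 to 0.931, 2 peaks); the cause was not tested. The HEB difference had an interval including 0 at 8 kb or more (2.36 points) and without chromosomes 5 and 15 (0.341 points). A width of 4 kb or more gave 1044 peaks, 1154 genes and 160 list genes, and 8 kb or more gave 58 peaks, 52 genes and 21 list genes, with 74.1% of peaks at a coding gene. Among all 428 broad peaks, the share at a coding gene was 85.3% by gene ends and 95.3% for any overlap with a gene body. It was 74.5% for listed gene starts only, an alternative chosen after seeing the data. The other 56 values of the main results kept their direction and their side of the threshold or stayed within the stated limits. Over single gene lists, 227 counts stayed close to the main value and 53 moved.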
